A study of Mus musculus with 8 samples.

Results

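Neural stem cells (NSCs) labelled miPS-NSC were set against parthenogenetic NSCs (pNSC), both of the mouse. The members were chosen by label, as the 2 arrays with the cell type label miPS-NSC and the 2 arrays labelled pNSC, of 8 arrays in all. They were compared across 8107 genes, of 8576 genes named by the annotation used here. That annotation names 11692 probes, all of them among the 12421 probes of the authors' processed values. The gene counts below therefore do not cover the whole platform. Per the labels, the miPS-NSC and the pNSC are both of genotype OG2+/- and both female. OG2 is the usual name of a mouse transgene in which regulatory sequence of the pluripotency gene Pou5f1 drives a green fluorescent protein, and the labels do not describe it. The sample names carry the number P8 for miPS-NSC and P18 for pNSC, so that number cannot be told apart from the group. The other groups were NSCs titled female (fNSC, genotype OG2ROSA, P27) and mouse embryonic fibroblasts (MEF, OG2+/-), again with 2 arrays each. The labels name the same NSC expansion medium, with EGF and bFGF as growth factors, for all 4 groups. The labels do not explain the name miPS-NSC, which is read here, with the series title, as NSCs made from iPS cells (induced pluripotent stem cells). Their sample names carry the word pips-NSC. They state neither the cells of origin nor how many lines or clones were used. The labels do not state whether the 2 arrays of a group are of separate cultures, and each p-value therefore reflects no more than array-to-array spread, possibly technical.

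A parthenogenetic cell comes from an egg activated without sperm, and both of its genome copies are maternal. Imprinted genes are read from a single parental copy, according to DNA methylation laid down in the germ line. In a genome with no paternal copy, genes read from the paternal copy are known to be silent, and those read from the maternal copy have an extra active copy. Reprogramming to pluripotency resets much of the DNA methylation and chromatin of a cell. NSCs grown in epidermal and fibroblast growth factor divide without differentiating, and can form neurons, astrocytes and oligodendrocytes when the factors are withdrawn. The comparison asks how far the reprogrammed and re-differentiated cells stand from parthenogenetic NSCs, in their imprinted genes and beyond.

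RNA was hybridised to Illumina bead arrays, on which the fluorescence of beads that carry a probe measures the matching RNA. On the 4 arrays compared, 10604 to 10831 probes (41.3% to 42.1%) were detected, that is, had a detection p under 0.01. Within a group, replicate arrays differed with an SD of 0.252 (log2) in miPS-NSC and of 0.258 in pNSC. All levels below are log2 normalised intensities of 1 probe per gene, given for replicate 1 and then replicate 2 of a group. Differences are miPS-NSC minus pNSC with the standard error (SE) of the limma fit, and a call required an adjusted p under 0.05 together with at least a 2-fold difference. Where the dimmer group was not detected on both arrays, the fold is written "at least", and it sets the mean of the brighter group against a floor. The floor averages, over the arrays of the dimmer group, the probe's own value or the array's dimmest detected signal (6.16 to 6.26 on these 4 arrays), whichever is higher. Genes detected on none of the 4 arrays get no fold.

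Between miPS-NSC and pNSC, 1186 of the 8107 genes (14.6%) passed, with 619 (7.64%) higher in miPS-NSC and 567 (6.99%) lower. These shares are the background against which each gene list below is read. In all of the 1186 called genes the arrays of the groups did not overlap, which was also true of 75.1% of all genes tested. All 4 arrays detected 424 of the higher and 349 of the lower genes, with a median change of 2.64-fold and 2.48-fold, and 12 of the higher and 5 of the lower ones changed at least 10-fold. A further 133 called genes were detected on both miPS-NSC arrays and on neither pNSC array. The opposite was seen for 167 genes, detected on both pNSC arrays and on neither miPS-NSC array. The median difference over all genes was -0.03. Of the 270 called genes with another probe, 263 (97.4%) had every other probe on the same side. Of the higher calls, 121 lie on chromosome 4, whose genes stood higher in miPS-NSC as a whole, as described at the end, and called list members named below are marked where they lie on it.

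**Figure D1:**
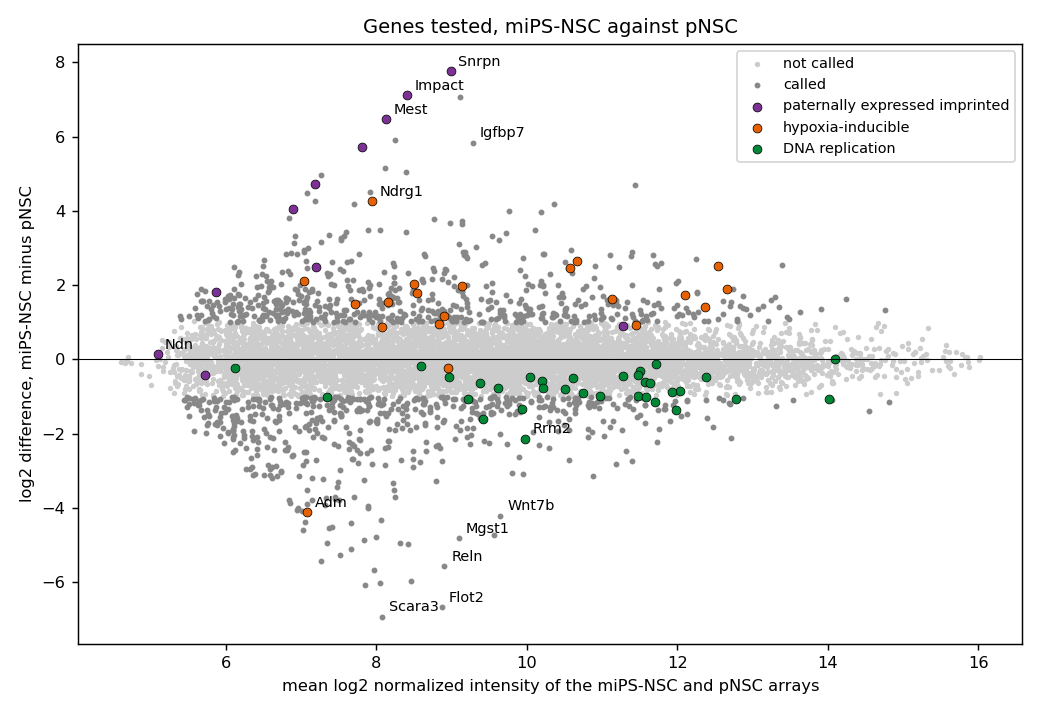
Log2 difference, miPS-NSC minus pNSC, of the 8107 genes (vertical axis) against their mean log2 normalised intensity over the 4 arrays (horizontal axis), 1 point per gene, with called genes darker and 3 gene lists coloured. Paternally expressed imprinted genes reach 7.76 at the top, hypoxia-inducible genes lie mostly above 0, and DNA replication genes lie mostly below it.

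Paternally expressed imprinted genes included the largest rise of all. Of 11 measured members of 29 listed, 8 rose, 0 fell and 3 were not called, and none lies on chromosome 4. Their median difference was 4.04, or 2.69 with genes below background set at their bounds, against -0.03 for all genes. All 8 were detected on both miPS-NSC arrays and on neither pNSC array, so their pNSC levels are levels of background and the fitted differences depend on it. For genes that no pNSC array detects, fewer expressing cells and less RNA per cell cannot be told apart in bulk RNA.

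Snrpn, which encodes a spliceosomal protein in the region affected in Prader-Willi syndrome, stood at 12.89 and 12.85 in miPS-NSC, against 5.15 and 5.06 in pNSC. It was at least 101-fold higher, with an SE of 0.08 on a difference of 7.76 (adjusted p = 4.08e-08), while the other Snrpn probe differed by 2.09. Mkrn3, a putative ubiquitin ligase gene of the same region, had levels of 9.57 and 9.51 in miPS-NSC and of 4.76 and 4.87 in pNSC, at least 10-fold apart. Its fNSC mean of 9.72 lay beside the miPS-NSC values, as did the Snrpn mean of 12.72. Ndn, the third measured gene of that region and a growth suppressor of neurons, was at 5.01 and 5.32 in miPS-NSC and at 4.95 and 5.09 in pNSC, and was detected on none of these 4 arrays. It was detected in fNSC, with a mean of 9.57, and in MEF, with 13.54, the only groups in which the Ndn probe read a signal.

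Impact, a regulator of the translational stress response, reached 11.96 and 11.97 in miPS-NSC, against 4.73 and 4.96 in pNSC, at least 53.9-fold (SE 0.11). Mest, a gene of the hydrolase family active in mesoderm and brain, was at 11.13 and 11.60 in miPS-NSC and at 4.87 and 4.92 in pNSC, at least 35.6-fold, with other probes between 4.52 and 6.01. Both genes lay away from their fNSC means, Impact above 10.55 and Mest below 13.42. Nap1l5, a nucleosome assembly protein gene that sits inside an intron of another gene, gave 10.76 and 10.59 in miPS-NSC and 5.05 and 4.83 in pNSC, at least 22-fold. Nnat, neuronatin, a small membrane protein of developing brain that likewise lies in an intron, gave 8.78 and 9.04 in miPS-NSC and 5.05 and 4.68 in pNSC, at least 6.47-fold. Its other probe differed by 2.74.

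Dlk1, a Notch ligand relative, and Peg10, a gene derived from a retrotransposon, stood apart from these, since neither was detected on the fNSC arrays. Dlk1 was at 8.57 and 8.32 in miPS-NSC and at 5.69 and 6.23 in pNSC, at least 4.69-fold (adjusted p = 0.000142), and its MEF mean was 10.21. Peg10 was at 6.62 and 6.93 in miPS-NSC, barely above the detection limit, against 4.80 and 5.10 in pNSC, at least 1.48-fold. The Peg10 call was lost with the authors' processed values, in which the difference was 0.66. Inpp5f, an inositol phosphatase gene of which a brain transcript is imprinted, gave 11.65 and 11.81 in miPS-NSC and 10.70 and 10.98 in pNSC. That difference of 0.89 (SE 0.12, adjusted p = 0.000875) missed the fold threshold, although it reached 1.03 and was called without pNSC replicate 2. Igf2, the fetal growth factor, was at 5.51 and 5.52 in miPS-NSC and at 5.71 and 6.15 in pNSC, detected on no NSC array and at a mean of 13.43 in MEF.

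The promoters of Nnat, Nap1l5 and Mkrn3 are shown because these genes were detected on both miPS-NSC arrays and on neither pNSC array and have a single listed start site, and because methylation of CG pairs marks the silent copy of imprinted genes. The sequences are the 200 bases upstream of the start, from RefSeq (GRCm38.p6), with each CG in capitals. They lie at chr2:157559878-157560077 on the plus strand, chr6:58907127-58907326 on the minus strand and chr7:62420154-62420353 on the minus strand.
Nnat: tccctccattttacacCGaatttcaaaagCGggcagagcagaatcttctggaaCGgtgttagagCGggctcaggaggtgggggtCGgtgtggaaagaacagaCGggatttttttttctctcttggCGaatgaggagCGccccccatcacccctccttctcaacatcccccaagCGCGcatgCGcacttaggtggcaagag
Nap1l5: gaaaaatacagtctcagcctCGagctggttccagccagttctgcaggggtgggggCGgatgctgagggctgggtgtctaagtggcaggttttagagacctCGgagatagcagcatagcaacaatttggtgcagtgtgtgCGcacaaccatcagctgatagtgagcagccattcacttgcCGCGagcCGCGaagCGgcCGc
Mkrn3: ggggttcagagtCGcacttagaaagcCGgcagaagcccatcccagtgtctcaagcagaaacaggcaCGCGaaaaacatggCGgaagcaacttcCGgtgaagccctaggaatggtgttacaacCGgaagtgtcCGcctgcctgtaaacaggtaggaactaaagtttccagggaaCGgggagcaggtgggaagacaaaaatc
In the 250 bases upstream of the start, these promoters held 12, 10 and 10 CG pairs. As many or more were held by 71.1% of the tested promoters for Nnat, and by 78.4% for Nap1l5 and Mkrn3. The 6 matched promoters of the 8 genes that rose had a median of 9 CG pairs, against 16 for the 6652 tested genes with a RefSeq promoter. The first listed start of each gene was used, although Mest has 3 listed starts and Snrpn 4, and other starts were not counted. Methylation of these promoters was not measured.

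Few maternally expressed imprinted genes were called. Of 17 measured members of 41 listed, 1 rose and 2 fell, with a median difference of -0.20. Cdkn1c, an inhibitor of cyclin-dependent kinases and a growth suppressor, rose 7.41-fold, and stood at 10.58 and 10.61 in miPS-NSC, against 7.74 and 7.68 in pNSC (SE 0.08, adjusted p = 6.02e-07). Its fNSC mean of 8.92 lay between the groups. Blcap, a small protein gene that hosts Nnat in its intron, was at 9.60 and 9.61 in miPS-NSC and at 10.74 and 10.68 in pNSC, and fell 2.15-fold (adjusted p = 4.68e-05). Pon2, a lactonase of the paraoxonase family, was at 11.88 and 11.78 in miPS-NSC and at 13.01 and 12.86 in pNSC, and likewise fell 2.15-fold. With the authors' processed values Blcap fell short of 2-fold, at -0.97.

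The other 14 maternally expressed genes were not called. Gatm, an enzyme of creatine synthesis, stood at 6.06 and 5.78 in miPS-NSC, where it was not detected, and at 6.76 and 7.02 in pNSC, a difference of -0.97 that was called without miPS-NSC replicate 1 (-1.11) and without pNSC replicate 1 (-1.09). Tssc4, of the Cdkn1c domain, gave 8.11 and 8.31 in miPS-NSC and 8.99 and 9.04 in pNSC (-0.80), and Ppp1r9a, a neuronal actin-binding protein gene, gave 10.32 and 10.03 in miPS-NSC and 10.86 and 10.83 in pNSC (-0.67). Cobl, an actin nucleator, differed by -0.72 but was detected on none of the 4 arrays. Gnas, a G protein subunit, stood higher without being called, at 11.22 and 11.24 in miPS-NSC and 10.99 and 10.73 in pNSC (0.37). Igf2r, the receptor that clears Igf2, was at 9.52 and 9.90 in miPS-NSC and at 9.95 and 10.02 in pNSC. The remaining members Ube3a, Atp10a, Kcnq1, Nap1l4, Commd1, Cd81, Trappc9 and Htr2a differed by between -0.33 and 0.33. Imprinting of these genes in NSCs was not tested.

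**Figure D2:**
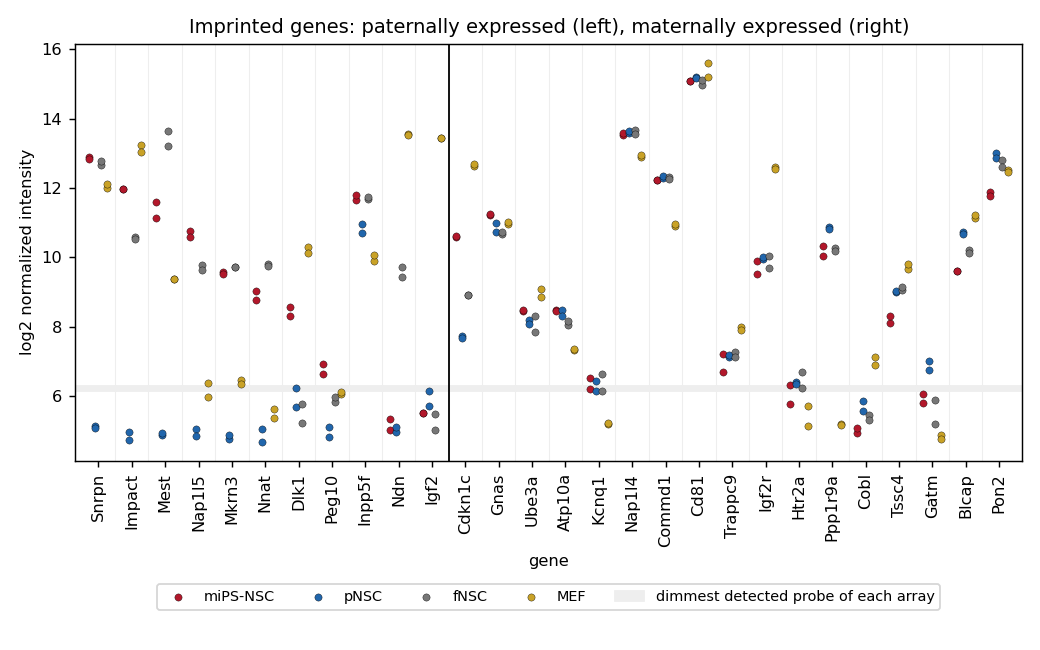
Log2 normalised intensity (vertical axis) of each measured imprinted gene (horizontal axis) on the 2 arrays of miPS-NSC, pNSC, fNSC and MEF, 1 point per array, with paternally expressed genes left and maternally expressed genes right of the line and the range of the dimmest detected probes as a grey band. In 8 paternally expressed genes the miPS-NSC points lie above the band and the pNSC points at or below it, whereas Ndn and Igf2 lie at or below it in both groups.

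Among 15 measured imprint regulators and DNA methylation genes, Dnmt3b, a de novo DNA methyltransferase, was the single call. It stood at 9.07 on both miPS-NSC arrays, against 8.03 and 7.94 in pNSC, 2.12-fold higher, and at a mean of 9.49 in fNSC. The call was lost with the authors' processed values (0.76). Dnmt1 (-0.45), Uhrf1 (-0.73), Trim28 (-0.12) and Ctcf (-0.17) were not called. Xist, whose RNA silences 1 X chromosome in female cells, was detected on neither miPS-NSC array, at 5.23 and 4.99, and on both pNSC arrays, at 8.34 and 8.17. It was at least 4.18-fold lower in miPS-NSC (adjusted p = 1.74e-06), with another probe at -2.96. The 269 tested X-linked genes had a median difference of -0.04, with 17 higher and 28 lower in miPS-NSC. Uty, the only measured Y-linked gene, was detected on none of the 4 arrays.

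Outside the imprinted genes, the largest rise with all 4 arrays detected was that of Igfbp7, a secreted protein that binds insulin-like growth factors. It stood at 12.07 and 12.32 in miPS-NSC, against 6.18 and 6.54 in pNSC, a 57-fold rise (log2 difference 5.83, SE 0.18). Ppp1r3c, a glycogen-targeting subunit of protein phosphatase 1, gave 13.78 and 13.79 in miPS-NSC and 8.96 and 9.19 in pNSC and rose 26.1-fold. Ecrg4, a secreted peptide precursor of the choroid plexus and of quiescent cells, rose 18.3-fold, to 12.40 and 12.52 in miPS-NSC against 8.21 and 8.33 in pNSC. The next in size were Itm2a, a membrane protein gene (15.9-fold), Osr2, a zinc finger transcription factor (15.7-fold), Sphk1, which makes sphingosine 1-phosphate (13.9-fold), and Kdelr3, a receptor that returns proteins to the endoplasmic reticulum (13.3-fold). Htra1, a secreted protease (12.7-fold), Cntnap4, a neurexin relative (12.6-fold), Col4a1, a basement membrane collagen (11.2-fold), Agt, angiotensinogen (10.8-fold), and Nfil3, a transcription factor (10.6-fold), completed the 12 largest. The smallest difference among these 12, that of Nfil3, was 3.41 (SE 0.12), and none of the 12 lies on chromosome 4. The fNSC mean was nearer to miPS-NSC in 2 of the 12 and nearer to pNSC in 10.

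The largest fall with all 4 arrays detected was that of Mgst1, a membrane glutathione transferase, at 6.76 and 6.61 in miPS-NSC against 11.35 and 11.65 in pNSC, a 28.1-fold fall (log2 difference -4.81, SE 0.14). Acsl5, which activates long-chain fatty acids, was at 7.28 and 7.11 in miPS-NSC and at 11.99 and 11.89 in pNSC, and fell 26.7-fold. Wnt7b, a secreted Wnt ligand, fell 18.5-fold, to 7.55 and 7.53 in miPS-NSC against 11.74 and 11.76 in pNSC. These 3 genes had fNSC means of 9.65, 11.01 and 10.02. Of the 12 largest falls measured in both groups, the fNSC mean was nearer to miPS-NSC in 4 and nearer to pNSC in 8. Pdlim4, a cytoskeletal adaptor (13.2-fold), Slc25a45, a mitochondrial carrier (10.1-fold), St3gal6, a sialyltransferase (9.71-fold), Ier3, an immediate early gene (8.79-fold), and Kcnc1, a potassium channel (8.44-fold), came next. Arsb, a lysosomal sulfatase (8.34-fold), Serpinf1, which encodes pigment epithelium-derived factor (7.49-fold), Dcxr, a sugar reductase (7.18-fold), and the p53 target Ccng1 (7.11-fold) completed the 12 largest.

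For genes detected in a single group of the pair, the change is given as a bound. Fbln2, a fibulin of the extracellular matrix, was at 12.55 and 12.74 in miPS-NSC and at 5.68 and 5.49 in pNSC, at least 86.5-fold higher (SE 0.12), with another probe at 3.52. Selenbp1, a selenium-binding methanethiol oxidase, was at 11.14 and 11.25 in miPS-NSC and at 5.32 and 5.26 in pNSC, at least 31.6-fold. Serpinh1, the collagen chaperone, reached 10.71 and 10.67 in miPS-NSC, against 4.96 and 6.12 in pNSC, at least 22.2-fold. Scrg1, a secreted protein gene (at least 15.6-fold), Cd40, a receptor of the tumour necrosis factor family (at least 12-fold, other probes between 1.02 and 3.04), Thy1, a surface glycoprotein of fibroblasts and neurons (at least 11.5-fold), and Syt1, a calcium sensor of synaptic vesicles (at least 8.63-fold), followed, with 5 imprinted genes among the 12.

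In the other direction Flot2, a membrane raft protein gene, was at 5.41 and 5.64 in miPS-NSC and at 12.13 and 12.28 in pNSC, at least 64.5-fold lower, with another probe at -5.31. Reln, reelin, the matrix signal that guides migrating neurons, was at 6.13 and 6.11 in miPS-NSC and at 11.69 on both pNSC arrays, at least 44.9-fold lower. Scara3, a scavenger receptor gene, was at 4.65 and 4.57 in miPS-NSC and at 11.52 and 11.56 in pNSC, at least 40.7-fold lower. Scara3 and Cyp7b1, an oxysterol hydroxylase (at least 29.3-fold lower), were not detected on the fNSC arrays either, whereas Slc25a20, the mitochondrial carnitine carrier (at least 38.2-fold), and Dnajc15, a mitochondrial chaperone cofactor (at least 25.9-fold), had fNSC means of 11.34 and 10.78. The other Slc25a20 probe differed by -1.96. B3gnt5, a glycolipid glycosyltransferase (at least 24.6-fold), Camk1, a calmodulin kinase (at least 18.2-fold), Gstm5, a glutathione transferase (at least 16.9-fold), Emp3, a membrane protein gene (at least 16.4-fold), Aard (at least 16.3-fold) and Col4a6, a basement membrane collagen (at least 15.5-fold), completed the 12. Emp3 and Col4a6 were likewise not detected on the fNSC arrays, and Reln and B3gnt5 were near the detection limit there, with means of 6.34 and 6.56. The fNSC mean was nearer to miPS-NSC in 6 of the 12 and nearer to pNSC in 6.

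The state of these switched genes in the other groups was mixed. Of the 133 genes detected on both miPS-NSC arrays and neither pNSC array, both fNSC arrays detected 54 and both MEF arrays 77, with 27 in common. Of the 167 genes with the opposite pattern, both fNSC arrays detected 87 and both MEF arrays 102, with 51 in common. A gene found in a single group of 2 arrays mostly carries no name here, so genes shared with fNSC or MEF are favoured among those counted.

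Genes of glycolysis rose together. Glycolysis turns glucose into pyruvate, and Ldha then turns pyruvate into lactate. Of 17 measured members of 24 listed, 10 rose and 0 fell, with a median difference of 1.33 against -0.03 over all genes. By step, the glucose carriers Slc2a3 and Slc2a1 rose 5.95-fold and 5.73-fold. Slc2a3 stood at 13.03 and 12.95 in miPS-NSC, against 10.40 and 10.43 in pNSC, and Slc2a1, which lies on chromosome 4, at 12.96 and 13.01 in miPS-NSC against 10.45 and 10.49 in pNSC. Hk2, the hexokinase that traps glucose in the cell, was at 13.64 and 13.56 in miPS-NSC and at 10.90 on both pNSC arrays, a 6.5-fold rise (SE 0.08, adjusted p = 7.08e-07). Below it, the phosphofructokinase gene Pfkl rose 2.92-fold, the aldolase gene Aldoa 2.33-fold, the isomerase gene Tpi1 2.51-fold, the mutase gene Pgam1 3.05-fold and Ldha 3.1-fold. The other Tpi1 probes differed by 0.16 to 1.47, and the mean over its probes was not called (0.99).

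Pdk1, a kinase that inhibits pyruvate dehydrogenase, rose 8.6-fold, with 10.73 and 10.58 in miPS-NSC against 7.81 and 7.29 in pNSC. Eno2, the enolase form typical of neurons, was at 12.87 and 12.82 in miPS-NSC and at 9.93 and 9.95 in pNSC, a 7.49-fold rise, and at a mean of 6.50 in fNSC. Not every isoform followed. The muscle and platelet phosphofructokinase genes Pfkm (-0.11) and Pfkp (-0.52), and the brain aldolase gene Aldoc, which astrocytes express (13.29 and 13.40 in miPS-NSC, 14.04 and 13.99 in pNSC), were not called. Pkm stood at 15.13 and 15.17 in miPS-NSC and at 14.28 and 14.07 in pNSC, just under the threshold with a difference of 0.97, and Gapdh at 0.56. Without Slc2a1 on chromosome 4, the median of the list was 1.28.

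Because several of these genes are known targets of the hypoxia-inducible factor HIF-1, a list of 32 hypoxia-inducible genes outside glycolysis was drawn up after the glycolysis values had been seen, so it is no independent support. Of its 20 measured members 15 rose and 1 fell, with a median difference of 1.68. Among the HIF-1 feedback genes, the prolyl hydroxylase Egln3 stood at 11.77 and 11.83 in miPS-NSC, against 9.33 and 9.35 in pNSC (5.51-fold), and Egln1 rose 2.25-fold. Vegfa, the angiogenic growth factor, was at 13.76 and 13.85 in miPS-NSC and at 11.20 and 11.35 in pNSC, a 5.75-fold rise (SE 0.09). Ddit4, a brake on mTOR signalling, was at 12.01 and 11.95 in miPS-NSC and at 9.26 and 9.42 in pNSC, a 6.24-fold rise. In these genes the arrays of a group differed by far less than the groups did.

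Ndrg1, a stress-responsive differentiation gene, stood at 9.87 and 10.29 in miPS-NSC, against 6.20 and 5.44 in pNSC, at least 14.4-fold, with pNSC detected on a single array. The collagen-modifying hydroxylases P4ha1 (3.45-fold), P4ha2 (at least 3.67-fold), Plod1 (4.11-fold) and Plod2 (3.08-fold) rose as well. So did the mitochondrial genes Bnip3l (2.65-fold), a mitophagy receptor, Fam162a (3.76-fold) and Ak4 (3.95-fold), and the regulators Bhlhe40 (3.33-fold), Mxi1 (2.8-fold) and Stc2 (2.92-fold). Plod1 and Ak4 lie on chromosome 4, and the median without them was 1.58. Adm, adrenomedullin, a vasodilator peptide that hypoxia induces in many cells, went the other way, at 5.19 and 4.85 in miPS-NSC against 8.79 and 9.50 in pNSC, at least 7.71-fold lower (adjusted p = 2.14e-05). Kdm3a (0.93), Higd1a (0.94) and Narf (0.88) missed the fold threshold, and Pfkfb4 differed by -0.23. P4ha2 (0.98), Mxi1 (0.85), Stc2 (just under 2-fold) and Egln1 (0.88) lost their calls with the authors' processed values. Oxygen and medium use of the cultures were not measured.

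Upstream sequences of Hk2, Pgam1, Ddit4 and P4ha1 are shown because HIF-1 is known to bind sites with the core ACGTG. These 4 were picked among the risen genes that have a single listed start and hold that core in the stretch shown. They are the 200 bases before the start from RefSeq (GRCm38.p6), with ACGTG, or CACGT where the core lies on the other strand, in capitals. Their positions are chr6:82774455-82774654 on the minus strand, chr19:41911671-41911870 on the plus strand, chr10:59951771-59951970 on the minus strand and chr10:59323096-59323295 on the plus strand.
Hk2: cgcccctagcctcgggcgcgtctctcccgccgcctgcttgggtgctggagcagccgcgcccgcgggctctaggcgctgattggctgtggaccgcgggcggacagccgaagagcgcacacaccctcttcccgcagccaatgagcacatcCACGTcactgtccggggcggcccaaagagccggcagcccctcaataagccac
Pgam1: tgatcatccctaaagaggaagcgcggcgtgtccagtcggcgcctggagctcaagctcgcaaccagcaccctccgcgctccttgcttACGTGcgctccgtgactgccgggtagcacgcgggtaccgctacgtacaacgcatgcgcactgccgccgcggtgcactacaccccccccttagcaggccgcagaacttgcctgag
Ddit4: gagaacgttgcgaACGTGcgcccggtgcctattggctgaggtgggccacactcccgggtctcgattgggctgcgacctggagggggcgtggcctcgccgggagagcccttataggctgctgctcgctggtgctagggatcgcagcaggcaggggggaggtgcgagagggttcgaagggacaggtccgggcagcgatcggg
P4ha1: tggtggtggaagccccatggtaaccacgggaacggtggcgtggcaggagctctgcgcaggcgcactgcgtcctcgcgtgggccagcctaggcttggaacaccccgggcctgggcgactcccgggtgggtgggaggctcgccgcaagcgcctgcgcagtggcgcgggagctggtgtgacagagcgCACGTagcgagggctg
The core was searched on both strands of the 250 bases upstream, with overlapping matches of both strands taken as 1. It was found in 4 of 9 matched glycolysis genes that rose (44.4%) and in 6 of 11 matched hypoxia-inducible genes that rose (54.5%), against 22.8% of the 6652 tested promoters. Both lists include known HIF-1 targets, so these shares depend on the choice of lists and say nothing about these arrays. The core holds a CG, and the median CG count was 13 for the glycolysis genes, 21 for the hypoxia-inducible genes and 16 for all tested promoters. For genes with several listed starts, the first was used. A match of letters is no evidence of binding.

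Inhibitors of the cell cycle and targets of the tumour suppressor p53 split into opposing sets. Of 22 measured members of 26 listed, 6 rose and 7 fell (median 0.31). Among the inhibitors of cyclin-dependent kinases, Cdkn2a, Cdkn2b and Cdkn1b rose beside the imprinted Cdkn1c, and Cdkn1a fell. Cdkn2a, which encodes p16 and Arf, stood at 10.79 and 11.05 in miPS-NSC, against 6.30 and 5.45 in pNSC, at least 24.9-fold higher (adjusted p = 9.75e-06), with another probe at 3.32. Cdkn2b, its neighbour on chromosome 4, which encodes p15, was at 11.98 and 12.01 in miPS-NSC and at 10.42 and 10.81 in pNSC, a 2.6-fold rise, and at a mean of 6.98 in fNSC. Cdkn1b, which encodes p27, was at 7.98 and 7.71 in miPS-NSC and at 6.58 and 6.81 in pNSC, a 2.22-fold rise that was lost with the authors' processed values (0.57). Cdkn2c (0.01) and Cdkn2d (0.29) were not called.

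Cdkn1a, which encodes p21 and is a classical p53 target, stood at 11.41 and 11.37 in miPS-NSC against 12.81 and 12.89 in pNSC, a 2.76-fold fall (SE 0.08). Other p53 targets fell with it. Phlda3, an inhibitor of Akt, was at 5.07 and 5.13 in miPS-NSC and at 9.81 and 9.50 in pNSC, at least 11-fold lower. Ccng1, cyclin G1, was at 9.70 and 9.83 in miPS-NSC and at 12.58 and 12.61 in pNSC, 7.11-fold lower. Aen, an apoptosis nuclease (at least 3.53-fold), Trp53inp1 (4.96-fold), Zmat3 (3.82-fold) and Ei24 (2.35-fold) also fell, and for all 7 genes that fell the fNSC mean lay nearer to pNSC than to miPS-NSC. Trp53inp1 fell although it lies on chromosome 4. Mdm2, the p53 inhibitor and target, stood at 11.03 and 11.09 in miPS-NSC and at 11.62 and 11.45 in pNSC (-0.48) and was not called, nor were Bbc3 (0.66) and Sesn2 (0.09). Gadd45b (5.44-fold) and Plk2 (2.7-fold), which other stress signals also induce, rose.

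**Figure D3:**
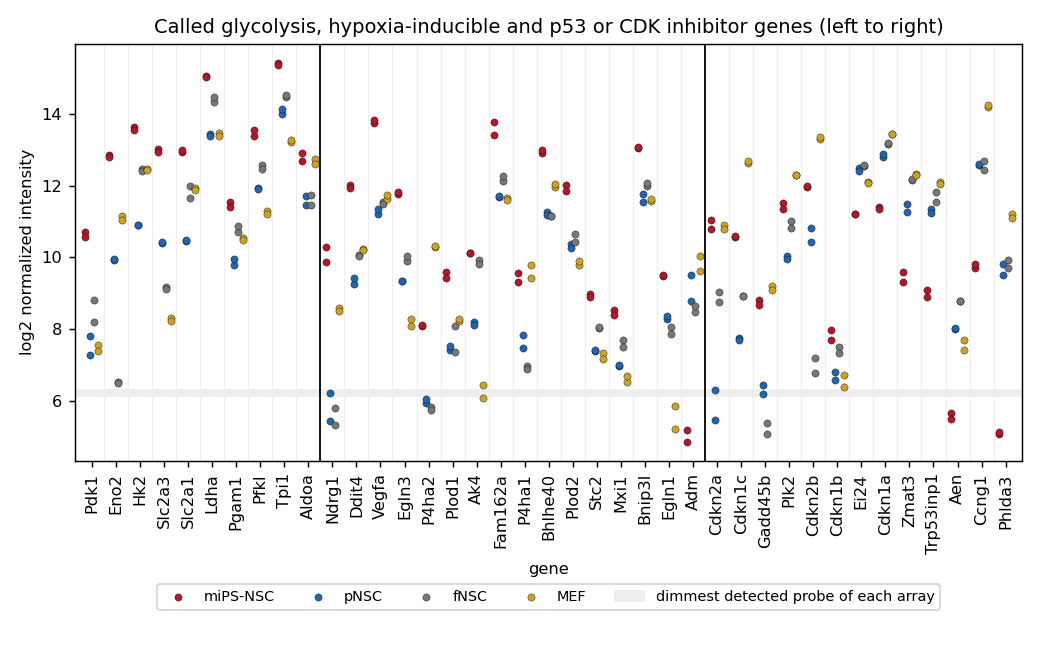
Log2 normalised intensity (vertical axis) of the called glycolysis, hypoxia-inducible and cell cycle inhibitor or p53 target genes (horizontal axis, in 3 blocks from left to right) on the 2 arrays of each group, 1 point per array, with the range of the dimmest detected probes as a grey band. In the first 2 blocks the miPS-NSC points lie above the pNSC points except for Adm, and in the last block Cdkn2a and Phlda3 mark the 2 directions.

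Genes of DNA replication lay lower in miPS-NSC, while no gene of mitosis was called. Of 33 measured replication genes of 40 listed, 0 rose and 10 fell, with a median difference of -0.78, and 1 of the 33 had a positive difference (Rpa1, 0.02). Rrm2, the regulated subunit of ribonucleotide reductase, was at 9.03 and 8.79 in miPS-NSC and at 11.09 and 10.99 in pNSC, a 4.39-fold fall (SE 0.12). Mcm3, a subunit of the replicative helicase, was at 8.56 and 8.67 in miPS-NSC and at 10.28 and 10.16 in pNSC, a 3.04-fold fall. The helicase genes Mcm6 (2.57-fold) and Mcm5 (2.09-fold), the helicase loader Cdc6 (2.55-fold) and the flap nuclease Fen1 (2.22-fold) fell too. Mcm4, Pcna, Tyms and Gins3 fell 2.01-fold to 2.11-fold, and each of these 4 calls was lost when an array was left out: Mcm4 just under 2-fold without miPS-NSC replicate 1, Pcna at -0.85 without that array and at -0.82 without pNSC replicate 2, Tyms at -0.91 without pNSC replicate 1, and Gins3 at -0.93 without miPS-NSC replicate 1 and at -0.92 without pNSC replicate 2. With the authors' processed values Tyms (-0.96), Pcna (-0.84) and Gins3 (-0.51) missed 2-fold as well.

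With no fold minimum, 28 of the 33 measured replication genes were called lower, beside 2171 of all 8107 genes at that setting. None of 24 measured mitosis genes was called (median -0.11), with differences from -0.52 for Foxm1 to 0.68 for Kif2c. Plk1 (-0.05), Top2a (-0.06) and Cdk1 (-0.30) were among them. Of 14 measured G1 cyclin and E2F genes 3 fell. Ccnd1, cyclin D1, the growth factor-driven partner of Cdk4, stood at 13.83 and 13.86 in miPS-NSC, against 15.17 and 15.30 in pNSC, a 2.62-fold fall. Rbl1, a retinoblastoma relative, fell 2.17-fold, a call lost with the authors' processed values (-0.90). Ccne1, cyclin E1, was at least 1.84-fold lower, and its call was lost with the authors' processed values (-0.40), without miPS-NSC replicate 1 (-0.80) and without pNSC replicate 2 (-0.88). Growth rate was not measured.

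The labelled cell type was borne by its markers in both groups, at different levels. Of 11 measured NSC markers of 16 listed, all 11 were detected on all 4 arrays, 0 rose and 4 fell (median -0.96). Sox2, the transcription factor that keeps the stem cell state, stood at 8.28 and 8.66 in miPS-NSC and at 8.33 and 8.94 in pNSC, and Slc1a3, the glutamate transporter of radial glia, at 15.65 and 15.43 in miPS-NSC and at 15.58 and 15.59 in pNSC, and in both genes the arrays of the groups overlapped. Fabp7, the fatty acid-binding protein of radial glia, was at 6.74 and 7.77 in miPS-NSC, arrays that differed widely, and at 9.56 and 9.90 in pNSC, a 5.55-fold fall (SE 0.33). Nes, nestin, was at 10.89 and 11.16 in miPS-NSC and at 12.18 and 11.94 in pNSC, a 2.05-fold fall, and Vim, vimentin, fell 2.08-fold. Hes5, which lies on chromosome 4 and is described with Notch signalling, was the fourth gene that fell. Nes and Vim lost their calls when an array was left out (Nes at -0.90 without miPS-NSC replicate 1 and -0.91 without pNSC replicate 1, Vim just under 2-fold without miPS-NSC replicate 1 and at -0.96 without pNSC replicate 2), and Nes also with the authors' processed values (-0.98). Summed over the list on the linear scale, the markers gave 65877 and 59517 in miPS-NSC and 75024 and 75967 in pNSC. Slc1a3 made up most of each sum, which therefore says little about the other markers.

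Notch signalling, which maintains neural stem cells through its Hes targets, showed 1 rise and 3 falls among 12 measured genes (median -0.38). Of the ligands, Jag1 was at 7.31 and 7.19 in miPS-NSC and, not detected, at 6.09 and 5.93 in pNSC, at least 2.05-fold higher. Dll1 was at 7.05 and 7.12 in miPS-NSC and at 8.51 and 8.47 in pNSC, 2.65-fold lower. The targets Hes5 (8.16 and 8.18 in miPS-NSC, 9.51 and 9.39 in pNSC) and Nrarp (8.79 and 8.60 in miPS-NSC, 9.90 and 10.00 in pNSC) fell 2.42-fold and 2.39-fold, Hes5 against the direction of most of chromosome 4. Notch1, the receptor, and Hes1 stood at -0.99 and -0.88 and were not called, and Notch3 differed by 0.37. Jag1, Dll1 and Hes5 fell short of 2-fold with the authors' processed values (0.50, -0.82 and -0.95).

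Wnt ligands were among the falls. Among 18 measured Wnt pathway genes 2 rose and 4 fell (median -0.39). Beside Wnt7b, the ligands Wnt5b (2.37-fold) and Wnt7a (2.14-fold) and the receptor Fzd2 (2.05-fold) fell, whereas the receptor Fzd7, at 10.54 and 10.59 in miPS-NSC and 8.83 and 9.15 in pNSC, rose 2.97-fold and the transcriptional repressor Tcf7l1 2.23-fold. Axin2, a general target of Wnt signalling through beta-catenin, differed by 0.04. Wnt5b, Wnt7a and Fzd2 lost their calls with the authors' processed values (-0.84, -0.93 and -0.74), Fzd2 also without miPS-NSC replicate 1 (-0.92) or pNSC replicate 1 (-0.94), and Wnt7a without pNSC replicate 2 (-0.97).

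In the BMP and TGF-beta pathway 2 of 20 genes rose and 1 fell (median 0.27). Bmp7, a ligand that drives astrocyte differentiation, was at 8.61 and 8.45 in miPS-NSC and at 6.60 and 5.86 in pNSC, at least 4.28-fold higher. Id1, a BMP target that holds back differentiation, was at 10.99 and 11.08 in miPS-NSC and at 9.07 and 8.93 in pNSC, a 4.08-fold rise (SE 0.09). Its relatives Id2 (0.11), Id3 (0.98, on chromosome 4) and Id4 (-0.41) were not called. Tgfb2 was at least 2.26-fold lower, and its call was lost with the authors' processed values (-0.52) and without pNSC replicate 2 (-0.98). Of 19 measured genes of the FGF and EGF receptors and their feedback, Ier3 alone was called, at 9.30 and 9.33 in miPS-NSC and 12.55 and 12.36 in pNSC. The receptors Egfr (0.31) and Fgfr1 (-0.03) and the feedback genes Spry4 (-0.16) and Dusp6 (-0.68) were not called. In the Sonic hedgehog pathway Sufu, an inhibitor, was at least 1.77-fold higher on low signals, a call lost with the authors' processed values (0.64), and Smo and Nkx2-2 were not called.

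Of 6 measured markers of the oligodendrocyte lineage, of 16 listed, 0 rose and 3 fell (median -0.81). Pdgfra, the growth factor receptor of oligodendrocyte precursors and of fibroblasts, stood at 5.45 and 6.42 in miPS-NSC, against 10.80 and 11.01 in pNSC, at least 24.5-fold lower (adjusted p = 1.65e-05), and at a mean of 5.46 in fNSC. Cspg4, the NG2 proteoglycan, was at least 1.69-fold lower, a call lost with the authors' processed values (-0.71), and Bcas1, at 13.51 on both miPS-NSC arrays against 14.54 and 14.66 in pNSC, fell 2.13-fold. Olig1 (-0.53), Nkx2-2 (-0.48, with another probe at 1.28) and Cnp (0.02) were not called. The list summed to 43666 and 40558 in miPS-NSC, against 71130 and 69694 in pNSC.

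Neuron markers gave 5 rises and 4 falls among 15 measured of 26 listed, and astrocyte markers 2 and 2 among 9 of 18. Syt1 stood at 9.48 and 9.17 in miPS-NSC and, not detected, at 4.92 and 4.76 in pNSC. Nrn1, neuritin, a neurite outgrowth factor, was at 12.63 and 12.38 in miPS-NSC and at 9.69 on both pNSC arrays, a 7.02-fold rise. Gad1, which makes the transmitter GABA, was at 9.73 and 9.63 in miPS-NSC and at 7.76 and 7.29 in pNSC, 4.46-fold higher. Elavl4, a neuronal RNA-binding protein gene on chromosome 4, was at least 2.6-fold higher. In contrast Stmn3, a tubulin regulator, fell 5.76-fold, to 6.50 and 6.53 in miPS-NSC against 8.90 and 9.18 in pNSC, and Syp, synaptophysin, Nefm, a neurofilament, and Ncam1, an adhesion molecule, also fell. Elavl4 (0.83), Syp (-0.83), Nefm (-0.60) and Ncam1 (-0.97) lost their calls with the authors' processed values, and Ncam1 also without pNSC replicate 1 or without miPS-NSC replicate 2 (-0.94 each).

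The neuron list summed to 34088 and 33061 in miPS-NSC, against 19131 and 19533 in pNSC, and Eno2, a glycolysis gene as well, is part of that sum. Among astrocyte genes Slc1a2, a glutamate transporter, was at 9.86 and 9.81 in miPS-NSC and at 7.71 and 7.60 in pNSC, 4.52-fold higher, and Clu, a secreted chaperone, rose 2.19-fold. Apoe, the lipid carrier of the brain, was at 9.61 and 9.63 in miPS-NSC and at 11.44 and 11.31 in pNSC, 3.38-fold lower, and Acsbg1, a fatty acid activator, fell 2.54-fold. The summed astrocyte markers stood at 52140 and 50307 in miPS-NSC and at 59214 and 58478 in pNSC. No named probe of Gfap, Tubb3, Dcx, Mbp or Sox10 passed the detection filter, and none of 7 microglia markers did. Because genes read in a single group mostly carry no name here, these absences do not show that the genes were off. How far a differing share of neurons or glia enters the other results was not tested.

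Regional genes of the neural tube differed as well. Of 4 measured Hox genes, which mark hindbrain and spinal cord levels, 3 fell. Hoxa5 stood at 10.71 on both miPS-NSC arrays, against 12.41 and 12.43 in pNSC, a 3.27-fold fall (SE 0.08). Hoxa4 was at 5.98 and 6.71 in miPS-NSC and at 9.24 and 8.81 in pNSC, at least 6.02-fold lower. Hoxa7 was at least 2.38-fold lower, a call lost with the authors' processed values (-0.73), while Hoxa2 (-0.15) was not called. All 7 measured midbrain and hindbrain genes had positive differences (median 0.72), and Gbx2, at 8.93 and 8.72 in miPS-NSC against 7.27 and 7.35 in pNSC (2.86-fold), and En1 (2.25-fold) rose. These calls of Gbx2 and En1 were lost with the authors' processed values (0.96 and 0.73). Of 4 forebrain genes Dmrta2, on chromosome 4, rose 3.65-fold, and Otx2 was at least 2.49-fold lower, lost with the authors' processed values (-0.70). Of 3 measured neural crest markers, of 8 listed, 2 rose, and the other differed by 0.09 and was not called. Ets1 (13.09 and 13.03 in miPS-NSC, 11.02 and 10.90 in pNSC) rose 4.3-fold and Tfap2a 2.02-fold. Tfap2a fell short of 2-fold with the authors' processed values (0.87).

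Among 10 measured pluripotency and reprogramming genes of 25 listed, 3 rose and 0 fell (median 0.51). Klf4, on chromosome 4, was at 7.65 and 7.66 in miPS-NSC and, not detected, at 5.23 and 5.57 in pNSC, at least 2.71-fold higher, with other probes from 0.89 to 2.22. Myc, which promotes growth, was at 8.92 and 9.06 in miPS-NSC and at 7.16 and 7.52 in pNSC, a 3.15-fold rise. Klf2 rose 2.36-fold. Klf4 and Klf2 fell short of 2-fold with the authors' processed values (0.92 and 0.57). Pou5f1, the defining gene of pluripotent cells, was detected near the limit in miPS-NSC, at 6.94 and 6.71, against 6.02 and 5.98 in pNSC, and its difference of 0.83 (SE 0.26) was not called. Fbxo15 stood at 6.84 and 6.71 in miPS-NSC and at 5.91 and 6.20 in pNSC (0.72), likewise not called. No named probe of Nanog, Zfp42, Sall4 or Lin28a passed the filter. Since a gene read on the 2 miPS-NSC arrays alone would mostly carry no name here, this does not show that these genes were off.

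Mesenchymal genes and genes of the extracellular matrix rose in part. Of 11 measured fibroblast and mesenchymal markers 3 rose and 2 fell (median -0.43). Beside Fbln2, Thy1 (9.83 and 9.65 in miPS-NSC, 4.82 and 4.75 in pNSC) and Twist1, a mesenchymal transcription factor (9.46 and 9.17 in miPS-NSC, 5.28 and 4.85 in pNSC, at least 8.59-fold), rose. Twist2, its relative, was at 4.83 and 4.87 in miPS-NSC and at 7.04 and 7.17 in pNSC, at least 1.87-fold lower, and Acta2, smooth muscle actin, fell 2.58-fold, although its other probes differed by -0.42 to 0.18. Both falls missed 2-fold with the authors' processed values (-0.80 and -0.70). Col1a2, a collagen that defines fibroblasts, was detected on none of the 4 arrays and stood at a mean of 11.40 in MEF, and Snai1 was likewise undetected. The list summed to 22724 and 24742 in miPS-NSC and 17707 and 19086 in pNSC, against 157942 and 160145 in MEF. Gata6, an endoderm factor, and Flt1, a receptor of Vegfa on endothelium, were lower, Gata6 by at least 1.82-fold (-0.67 with the authors' processed values, not called) and Flt1 6.51-fold, at 9.34 and 9.08 in miPS-NSC against 11.90 and 11.93 in pNSC.

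Of 33 measured matrix genes 10 rose and 5 fell (median 0.11). The largest difference in the list was that of Fbln2, given above. Of the basement membrane genes, Col4a1 stood at 11.87 and 11.83 in miPS-NSC, against 8.40 and 8.33 in pNSC, Col4a2 rose 6.02-fold and Hspg2, perlecan, on chromosome 4, 3.35-fold, whereas Col4a6, not in the list, was at least 15.5-fold lower. Fbln1, another fibulin, was at 11.63 and 11.61 in miPS-NSC and at 8.85 and 8.73 in pNSC, 7.13-fold higher. The collagen Col5a1 (2.15-fold), the neural proteoglycan Ncan (2.06-fold) and Eln, elastin (at least 2.46-fold, or 0.59 and not called with the authors' processed values), rose too. The metalloproteinase inhibitors went down, Timp2 3.15-fold, to 11.07 and 11.06 in miPS-NSC against 12.75 and 12.70 in pNSC, and Timp1 at least 3.11-fold. Timp1 missed 2-fold with the authors' processed values (-0.83). Among 16 integrins and cadherins 4 rose and 1 fell, with Itga5, the fibronectin receptor subunit, at 9.37 and 9.49 in miPS-NSC and 7.60 and 7.77 in pNSC (3.35-fold).

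Of 23 measured ephrin, semaphorin and netrin genes 5 rose and 1 fell. Epha5, an ephrin receptor of developing brain, was at 8.62 and 8.54 in miPS-NSC and, not detected, at 5.22 and 5.96 in pNSC, at least 5.15-fold higher. Epha7, on chromosome 4, Epha3 and the repellent Slit2 were likewise detected on both miPS-NSC arrays and neither pNSC array, by at least 1.51-fold to 1.78-fold, and lost their calls with the authors' processed values (0.57 to 0.69). Sema5a fell 3.2-fold. Of 10 genes of the insulin-like growth factor system 4 rose and 1 fell, with Igfbp7 joined by Igfbp4, at 14.63 and 14.67 in miPS-NSC against 12.07 and 12.15 in pNSC (5.82-fold), and Igfbp5 (3.7-fold). These are secreted proteins that bind the growth factors and limit or prolong their action. Among 11 annexin and S100 genes, calcium-binding proteins, 0 rose and 5 fell (median -0.78). S100a13 was at 4.89 and 5.16 in miPS-NSC and at 8.18 and 8.10 in pNSC, at least 3.85-fold lower, S100a1 at least 3.3-fold lower, and neither was detected on the fNSC arrays. Anxa2 (0.45) and Anxa5 (0.25) were not called.

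Of 24 measured glutathione and oxidative stress genes, which detoxify reactive compounds, 1 rose and 7 fell (median -0.49), and most were not called. Gstm5 stood at 4.92 and 5.87 in miPS-NSC, not detected, against 10.17 and 10.37 in pNSC, and was at least 16.9-fold lower. Gstp1 was at 11.15 on both miPS-NSC arrays and at 12.46 and 12.50 in pNSC, a 2.51-fold fall. Srxn1, which repairs peroxiredoxins, fell 2.79-fold, Gstm2 2.48-fold, Gstt1 at least 1.95-fold and Gsta3 at least 1.34-fold, the last 3 short of 2-fold with the authors' processed values (-0.76, -0.75 and -0.42). Nqo1, a quinone reductase, went up 2.41-fold, also short of 2-fold there (0.77). Among 17 genes of fatty acid oxidation and ketone bodies 1 rose and 3 fell, with Ppargc1a, a coactivator that drives mitochondrial biogenesis, at 8.99 and 8.96 in miPS-NSC against 10.44 and 10.24 in pNSC (2.58-fold lower). None of 18 cholesterol synthesis and uptake genes was called (median 0.11, from -0.40 to 0.75).

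Of 12 measured interferon response genes 2 rose and 2 fell. Ifitm3, a membrane protein that blocks virus entry, was at 11.79 and 11.94 in miPS-NSC and at 10.19 and 10.14 in pNSC, 3.24-fold higher, and Gbp2, an interferon-induced GTPase, rose 3.4-fold. Ifit2 fell 2.97-fold, to 8.51 and 8.68 in miPS-NSC against 10.07 and 10.26 in pNSC, and its relative Ifit3 was at least 1.74-fold lower (-0.42 with the authors' processed values, not called). Members of this list thus went both ways. Of 8 MHC class I and antigen processing genes Tap1 alone was called, lower, and this call too was lost with the authors' processed values (-0.43), while H2-K1 stood at 9.64 and 9.75 in miPS-NSC and 8.79 and 8.90 in pNSC (0.85), not called. Of 39 cytosolic ribosomal protein genes 3 rose and 0 fell (median 0.28). Rpl22 (2.73-fold) and Rps6 (2.14-fold, or 0.91 and not called without pNSC replicate 1) lie on chromosome 4, and Rplp0 rose 2.33-fold.

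**Figure D4:**
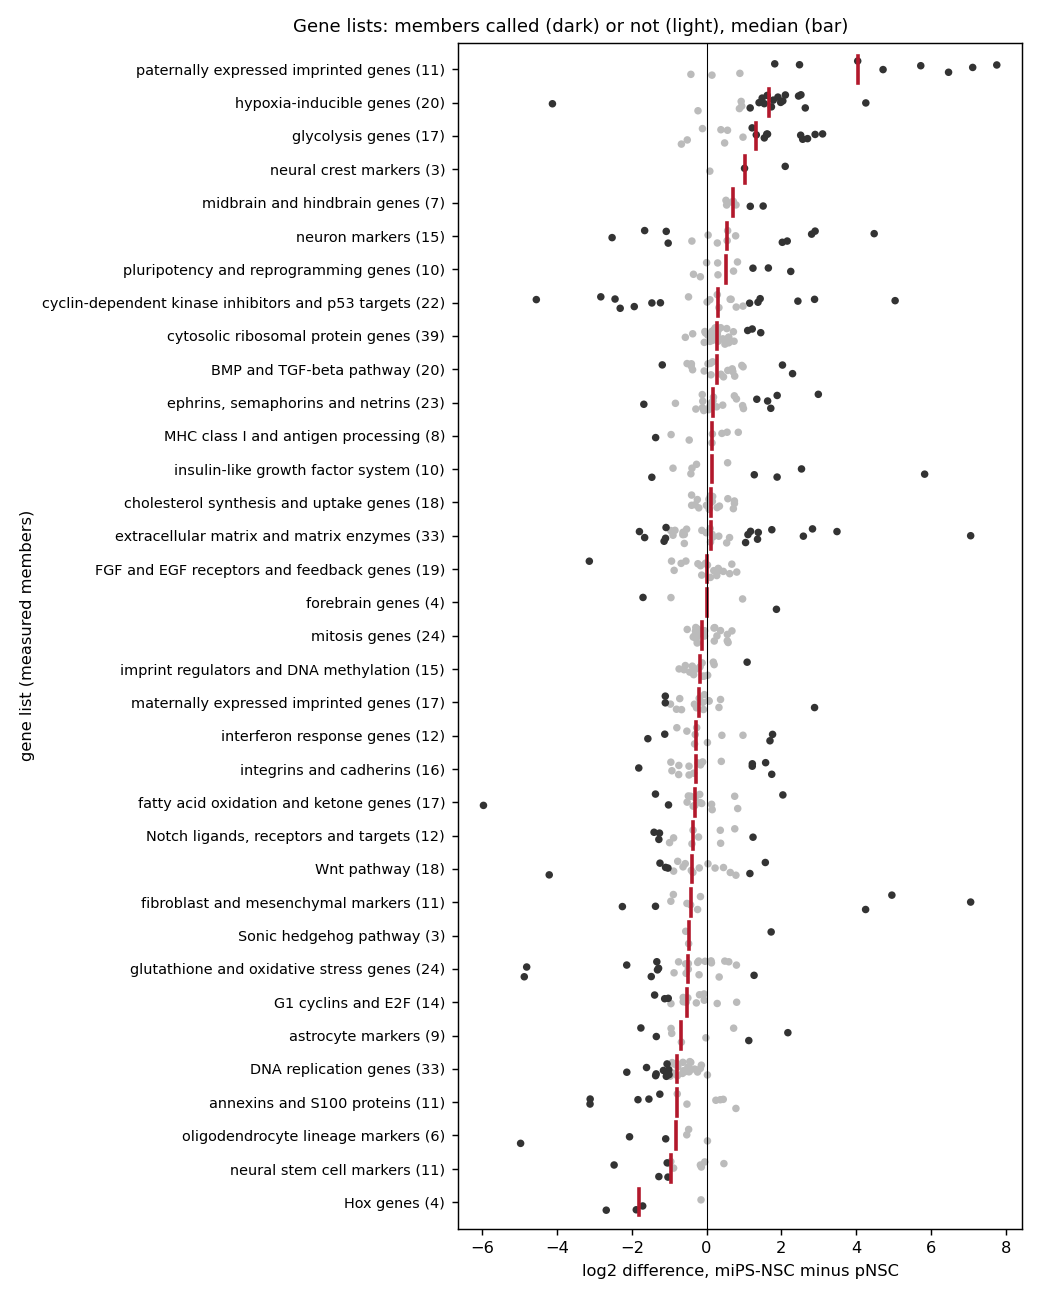
Log2 difference, miPS-NSC minus pNSC (horizontal axis), of the measured members of 35 gene lists with at least 3 measured members (vertical axis, number measured in brackets), 1 point per gene, called genes dark and others light, with the list median as a red bar. Medians run from 4.04 for paternally expressed imprinted genes at the top to -1.79 for Hox genes at the bottom, and the mitosis and cholesterol lists hold no called gene.

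Chromosome 4 stood apart from all other chromosomes. Its 493 tested genes had a median difference of 0.63, whereas the medians of the other autosomes and of the X chromosome lay between -0.15 and 0.04. Of the 493, 121 (24.5%) passed as higher in miPS-NSC and 9 (1.83%) as lower. The shift ran along the whole chromosome: in 4 equal blocks of its gene order the medians were 0.55, 0.62, 0.65 and 0.75, and 85.4% to 87.9% of the genes of a block had positive differences. It was seen in the 416 genes detected on all 4 arrays too (median 0.62). Set against fNSC, the chromosome's median was -0.04 in miPS-NSC and -0.70 in pNSC, both against the same fNSC arrays. Chromosome 19, by contrast, gave -0.50 in miPS-NSC and -0.47 in pNSC against fNSC, and -0.05 between the groups. Without the genes of chromosome 4, a choice made after seeing the data, 1056 genes were called, 498 higher and 558 lower, so that the larger number then lay on the lower side. Copy number of the chromosomes was not measured.

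**Figure D5:**
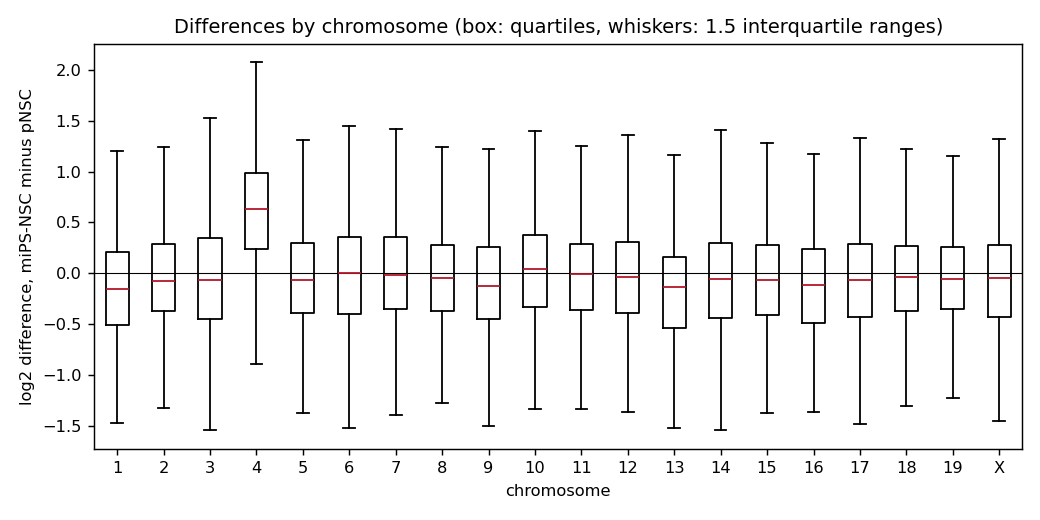
Log2 difference, miPS-NSC minus pNSC (vertical axis), of the tested genes of each chromosome (horizontal axis), with the median as a red line, the quartiles as a box and whiskers to the last gene within 1.5 interquartile ranges. The box of chromosome 4 lies above 0 with a median of 0.63, and those of the other chromosomes span 0.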

How the data were processed

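The deposited table holds bead intensity, its standard error as a signal over beads, and a detection p-value for 25697 probes per array, exported with GenomeStudio 2009.2 per the submitters' processing notes. The authors' own processed log2 values, whose columns share their quantiles, served as an alternative, with the steps behind them not given in the sources used here. Intensities were background-corrected and quantile normalised with neqc (limma 3.58.1, R 4.3.3, offset 16, background inferred from the detection p-values). A probe was kept if both arrays of any group gave it a detection p under 0.01 (12478 probes). Of these, 10958 carry a gene symbol in the annotation used here, and the brightest kept probe stood for a gene. All 8 arrays were fitted with lmFit and eBayes (4 residual degrees of freedom), with Benjamini-Hochberg adjustment over 8107 genes. The procedure was tested on simulated data. The members and gene lists were chosen with earlier results of these data known. Named are the 12 largest rises and falls with all 4 arrays detected, the 12 largest each way with a single group detected, every measured imprinted gene, and list members. The arrays titled _re were checked for pairing: their deviations correlated by 0.05 between miPS-NSC and pNSC, and by -0.002 to 0.07 over all pairs of groups. No pairing was used in the main fit, although this check cannot exclude that the _re arrays were run together. The number of arrays limits the precision.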

Additional observations from a re-analysis of the deposited data

Results flagged for a closer look

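Probes without a gene name in the annotation used here stood outside the comparison, and some carried signal in a single group of the pair. There were 100 such probes detected on both miPS-NSC arrays and on neither pNSC array, of which 76 lie outside the authors' processed values. The opposite was seen for 65 probes, detected on both pNSC arrays and on neither miPS-NSC array, 47 of them outside the authors' values. The genes behind them were not analysed here.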

How the results depend on the processing

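The scale of the values set how many genes passed the fold threshold. With quantile normalisation and no background correction 588 genes were called (317 higher, 271 lower, 109 list members), and with the authors' processed values 596 (321 higher, 275 lower, 109 list members), against 1186 (619 higher, 567 lower, 171 list members). All 588 and all 596 were among the 1186, and 53.9% of the calls were higher in both, against 52.2%. Without a fold minimum 4187 genes were called, 2016 higher and 2171 lower, with 361 list members and 28 lower DNA replication genes. Leaving out each of the 4 arrays in turn gave 1205 to 1235 calls, 625 to 658 higher and 564 to 590 lower, 170 to 181 list members, and 8 to 9 paternally expressed, 10 to 11 glycolysis, 15 to 16 hypoxia-inducible and 7 to 12 lower replication genes. With the _re arrays as a replicate block 1185 genes were called, 1184 of them shared. No called gene among those followed reversed its direction. The larger number of calls was on the higher side here, but on the lower side without a fold minimum (48.1% higher) and without the genes of chromosome 4 (498 higher and 558 lower, 47.2% higher), a setting chosen after seeing the data. The differences of Atp10a, Kcnq1, Ndn and Trappc9, none of them called, changed sign when an array was left out. Of 220 list members and genes followed across the settings, 203 of them called, 148 stayed as they were, called or not, under all settings and 72 changed under at least 1. With all probes of a gene averaged, Acta2, Adamts1, Mcm4, Ncam1, Tpi1 and Tyms lost their calls. Signals near background limit the folds of genes detected in a single group.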
